A study of Homo sapiens with 6 samples.

Results

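The Wnt pathway genes described here are 46 genes for Wnt secretion, ligands, receptors, the R-spondin axis, the cytoplasmic signalling proteins, the nuclear factors and the target genes. They were chosen by symbol from the 20020 genes of a count table, and all 46 were found in it. The table holds RNA-seq counts of HCT116, a human colorectal carcinoma cell line, in 6 libraries. In 3 libraries the cells carried a CRISPR knockout of CAD (CAD-KO), the DNase of apoptosis that is encoded by DFFB, and in the other 3 they carried the vector control (sgVec). Both groups had received 8 Gy of ionizing radiation (IR) 24 h earlier, so that irradiation is shared by all libraries and no unirradiated library enters the comparison. The labels name neither the guide nor the knockout line behind the CAD-KO libraries. The study's text and legend on its RNA-seq gene set analysis name CAD-KO2 cells. The labels do not say that the replicates were separate cultures. The p-values therefore measure the spread between these libraries, which may be technical.

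Wnt ligands are lipid-modified by PORCN and carried to the cell surface by WLS, a transmembrane sorting receptor, before they bind Frizzled receptors with the co-receptors LRP5 and LRP6. Without a ligand, APC, AXIN1, GSK3B and CSNK1A1 hold β-catenin (CTNNB1) in a complex that marks it for degradation. When that complex is held back, β-catenin reaches TCF and LEF factors on DNA and target genes are transcribed. In colorectal cancer the pathway is commonly active through changes downstream of the receptors, and HCT116 cells are known for an activating CTNNB1 mutation beside intact APC.

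Of the 46 genes, 42 had enough counts to be tested, and WLS had the lowest unadjusted p in edgeR among them. The list was chosen with earlier results of these data known, so the place of WLS in it is a description and not independent support. WLS was −0.88 ± 0.14 (log2 fold change ± SE, n = 3 and 3) in CAD-KO against sgVec, a level 1.84-fold lower. It did not pass the edgeR test at an adjusted p of 0.345, and it passed in DESeq2 at an adjusted p of 3.15e-09. A gene was called where its adjusted p was under 0.05 and its fold change at least 1.5. No member was called by edgeR's quasi-likelihood test in either direction, against 1 higher and 3 lower of the 12925 genes tested (0.00774% and 0.0232%). At an unadjusted p under 0.05, edgeR had 1 of the 42 members higher (CCND1) and 2 lower (WLS and WNT11), beside 1.08% of all genes higher and 1.76% lower. DESeq2 called 1 of the 42 members, WLS, among 22 genes higher and 25 lower of the same 12925 (0.17% and 0.193%).

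A pair of libraries stood apart from the rest. Totals ran from 14032994 to 19574144 counts. No count was found for 7561 genes in sgVec replicate 3, against 4577 to 5232 genes in the other 5 libraries. Pearson's r of log2 CPM (counts relative to library size after TMM scaling) was 0.995 between sgVec replicates 1 and 2, and 0.907 and 0.903 between these and sgVec replicate 3. For CAD-KO replicate 2 it was 0.972 and 0.978 with replicates 1 and 3, which had 0.995 with each other. All 3 CAD-KO totals exceeded all 3 sgVec totals, for which a two-sided exact permutation test gave p = 0.1, the smallest that 3 libraries against 3 allow (adjusted p = 0.3 over 3 library measures). DFFB, the targeted gene, had 10.02, 10.1 and 12.3 CPM in CAD-KO and 21.8, 22.9 and 20.9 CPM in sgVec, at −1.02 on the log2 scale and an adjusted p of 0.55 in edgeR and 0.000458 in DESeq2. Of the colon epithelial markers, EPCAM, CDH1, KRT8, KRT18 and KRT19 were present in every library, and VIL1, CDH17 and KRT20 were near 0. The 9 epithelial markers summed to 2080 to 4031 CPM per library, with 2767 in CAD-KO replicate 2 and 2080 in sgVec replicate 3 and 3669 or more in the other 4. CDH1, the adhesion molecule that binds β-catenin, had 66.3, 69.8 and 63.9 CPM in CAD-KO and 97.5, 99.6 and 93.9 CPM in sgVec, with an adjusted p of 1 in edgeR and 0.00816 in DESeq2 at a fold under 1.5. CDH1 was called with sample weights (log2 fold change of −0.61) and without both libraries (−0.59). KRT18 went the other way, at 493, 446 and 487 CPM in CAD-KO and 440, 435 and 273 CPM in sgVec, without overlap. The log2 fold change of KRT18 was 0.31 with all libraries and 0.17 without both, and no fit called it. CDX2 had 21.4, 15.2 and 18.3 CPM in CAD-KO and 24.5, 25.6 and 5.22 CPM in sgVec. For CDX2 and the remaining epithelial markers the groups overlapped. The 4 endothelial markers summed to 1.68, 1.001 and 2.22 CPM in CAD-KO and 4.16, 4.31 and 6.06 CPM in sgVec, without overlap, and the 6 leukocyte markers to 1.95, 1.48 and 2.33 CPM and 3.48, 6.22 and 2.04 CPM. Within these low sums, VWF (−1.77 log2 fold change) and ITGAM (−1.52) were lower in CAD-KO without overlap, each at an adjusted p of 1 in edgeR and called in 2 and 3 alternative fits. The 6 fibroblast markers summed to 12.0 to 48.9 CPM, mostly from COL1A1, with DCN and LUM at 0 throughout. The part of these marker levels in the results below was not tested.

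The levels of the 46 genes spanned a wide range when counts were divided by the length of their exons. The highest level per length belonged to 3 target genes: 246 CPM per kilobase for DKK1, 194 for CCND1 and 99.9 for MYC, as means over the 6 libraries. CTNNB1 followed at 43.7 CPM per kilobase and WLS at 38.1. At the other end, WNT5A, LGR5, LEF1 and ASCL2 were too low to test. ASCL2, a stem-cell transcription factor and Wnt target, had no count in any library, and LEF1 had 2 counts in all. A count of 0 over the 3 libraries of a group allows a level of up to 0.0545 CPM in CAD-KO and 0.0664 CPM in sgVec (3 counts), from counting error only. LGR5, an R-spondin receptor and stem-cell marker, stayed at or under 0.474 CPM, and WNT5A at or under 0.410 CPM.

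**Figure D1:**
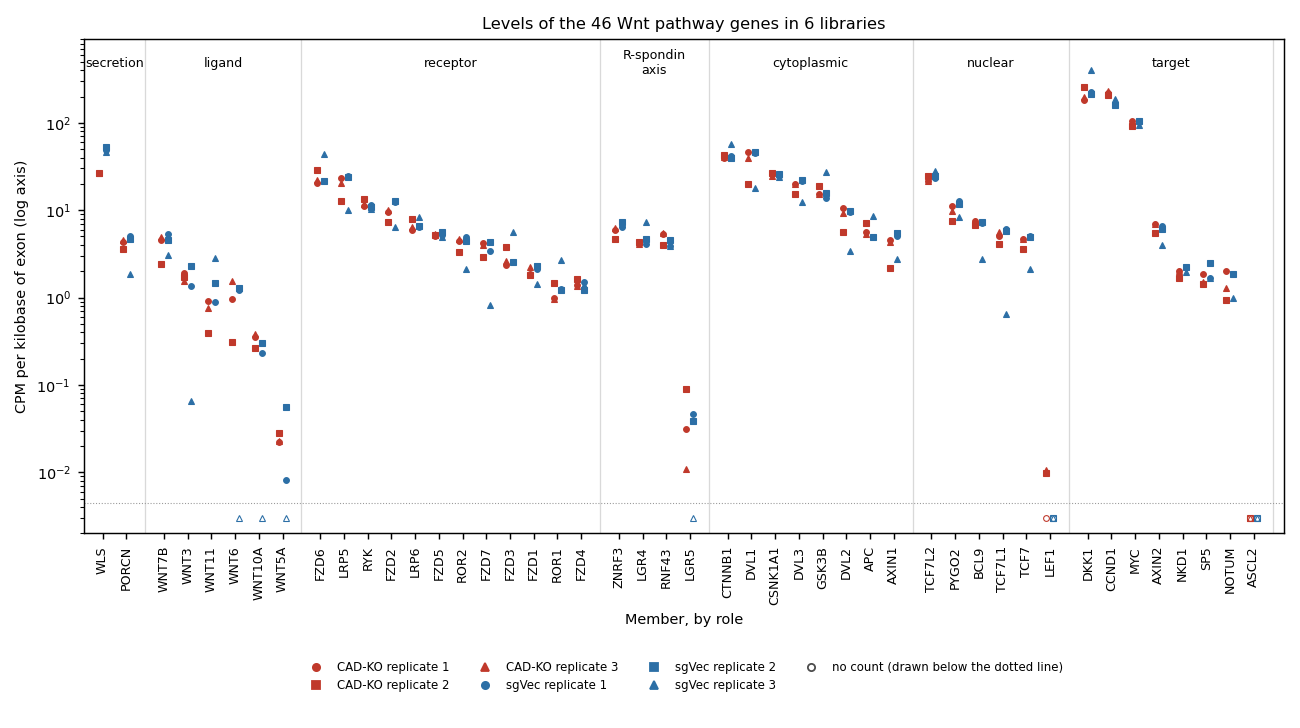
Levels of the 46 Wnt pathway genes in CPM per kilobase of exon (log axis), grouped by role and ordered by mean level within a role. Each point is 1 library (red CAD-KO, blue sgVec, shape for the replicate) and open symbols mark no count. DKK1, CCND1 and MYC lead, WLS shows a gap between the groups, and sgVec replicate 3 often lies away from the other sgVec points.

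WLS lies on the reverse strand of chromosome 1 (68098473 to 68233120, GRCh38, GENCODE release 29). It had 120.3, 119 and 119.8 CPM in CAD-KO replicates 1, 2 and 3 and 219, 236 and 206 CPM in sgVec replicates 1, 2 and 3. All 3 CAD-KO libraries lay below all 3 sgVec libraries, and the spread within CAD-KO was small beside the gap, with means of 119.7 ± 0.579 and 221 ± 15.1 CPM (SD, n = 3 each). In bulk RNA, fewer expressing cells and less RNA per cell cannot be told apart. By edgeR's unadjusted p of 0.000388, WLS ranked 14 among the genes tested. Since the list was chosen with earlier results of these data known, this rank and the calls below are descriptions. The direction was kept in each of the 18 alternative fits, with log2 fold changes from −0.93 to −0.82, while the adjusted p ran from 1.45e-16 to 1. WLS was called in 5 of these fits, and it was the only member called in any of them at the adjusted threshold. In limma-voom with sample weights, which gave sgVec replicate 3 a weight of 0.0404 and CAD-KO replicate 2 a weight of 0.154, the adjusted p was 9.94e-07, among 1.64% of genes called higher and 3.51% lower. Without sgVec replicate 3 the adjusted p in edgeR was 0.0372, with 0.0837% of genes called in each direction. Without both libraries that stood apart it was 1.45e-16 in edgeR, with 1.06% of genes called higher and 2.3% lower. The WLS values in these libraries were close to those of the other replicates, at −0.01 for CAD-KO replicate 2 and −0.14 for sgVec replicate 3 on the log2 scale, each against the mean of the other 2 libraries of its group. GENCODE places CTBP2P8, MIR1262 and, on the opposite strand, GNG12-AS1 within WLS, and none of the 3 is counted in the table. PORCN, the acyltransferase that modifies Wnt proteins, had 13.2, 10.8 and 13.7 CPM in CAD-KO and 15.3, 14.1 and 5.64 CPM in sgVec, and the groups overlapped.

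**Figure D2:**
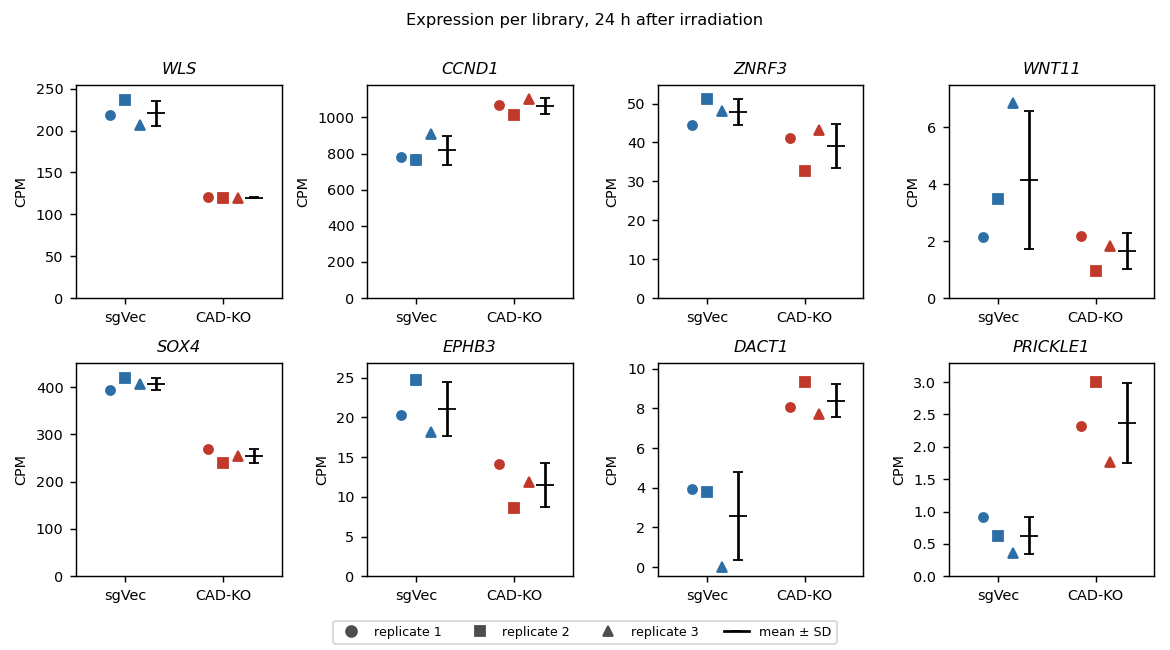
CPM per library (linear axis from 0) of 4 members and 4 other Wnt pathway genes, 24 h after irradiation, in sgVec (blue) and CAD-KO (red). Shapes mark the replicates and bars the mean ± SD (n = 3). WLS and SOX4 show 3 closely placed libraries in each group with a gap between the groups, while WNT11 and DACT1 spread widely within sgVec.

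To show the promoters beside these values, RefSeq sequences (GRCh38.p14) from 250 bases before to 50 bases after the start were searched on both strands for CTTTGAT, a core TCF/LEF motif. Of the 46 members, 31 had an entry. They held 40 promoters, of which 1 had the motif (2.5%), that of SP5, beside 919 of 35116 promoters of all genes (2.62%). The 2 sequences shown are WLS, the member with the difference above, and SP5, a Wnt target and the member with the motif, in capitals, starting at position −109 from the start. WLS had 2 entries, neither with the motif, and 1 of them is shown. That these letters are not in this window says nothing about binding of the factors, and a match is not a binding site.
WLS promoter, chr1:68232474-68232773, reverse strand: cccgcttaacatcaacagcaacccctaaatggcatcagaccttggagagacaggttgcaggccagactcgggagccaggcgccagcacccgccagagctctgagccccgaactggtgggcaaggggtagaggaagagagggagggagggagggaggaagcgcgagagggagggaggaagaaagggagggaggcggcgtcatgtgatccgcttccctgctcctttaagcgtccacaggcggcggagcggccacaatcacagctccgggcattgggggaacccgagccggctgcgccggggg
SP5 promoter, chr2:170715087-170715386, forward strand: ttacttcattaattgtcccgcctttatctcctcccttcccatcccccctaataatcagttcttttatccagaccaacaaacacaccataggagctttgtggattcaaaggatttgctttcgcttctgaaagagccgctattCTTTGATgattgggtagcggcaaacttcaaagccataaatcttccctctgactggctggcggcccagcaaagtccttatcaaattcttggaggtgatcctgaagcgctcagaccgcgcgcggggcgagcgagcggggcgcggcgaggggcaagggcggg

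WNT7B, a Wnt of epithelia, had the highest level per length of the 6 ligands among the members (4.11 CPM per kilobase). Of the other Wnt ligands in the wider pathway list, WNT10B, WNT3A, WNT9A and WNT16 were higher per kilobase of exon. WNT16 led them at 48.8 CPM per kilobase, with 136, 153 and 138 CPM in CAD-KO and 146, 145 and 238 CPM in sgVec. With the longest coding transcript as the length, WNT7B was at 5.30 CPM per kilobase, above WNT3A (4.69) and WNT9A (4.31). WNT10B (5.90) and WNT16 (50.6) stayed above it. WNT7B had 22.9, 12.2 and 24.6 CPM in CAD-KO and 26.6, 22.8 and 15.5 CPM in sgVec. The groups overlapped, and the lowest value of each group came from a library that stood apart. The log2 fold change of WNT7B was −0.13 ± 0.33 (SE), at an adjusted p of 1 in edgeR. WNT11, a ligand of non-canonical signalling, had 2.17, 0.949 and 1.82 CPM in CAD-KO and 2.14, 3.49 and 6.84 CPM in sgVec. The groups overlapped slightly, at 2.17 CPM in CAD-KO replicate 1 and 2.14 CPM in sgVec replicate 1, and sgVec replicate 3 was the highest library. Its log2 fold change was −1.32 ± 0.54 (SE), with an unadjusted p of 0.0463 and an adjusted p of 1 in edgeR. Without sgVec replicate 3 it was −0.76, and without both libraries −0.47 with an adjusted p of 0.354 in edgeR. On unadjusted p under 0.05 with a fold of at least 1.5, WLS and WNT11 were the 2 members passed, both lower, where 0.766% of genes passed as higher and 1.42% as lower. WNT3 had 8.29, 7.38 and 6.66 CPM in CAD-KO and 5.87, 9.85 and 0.282 CPM in sgVec, so that 1 library set the sgVec spread. WNT6 and WNT10A were at 0 in sgVec replicate 3 and otherwise between 0.527 and 2.62 CPM.

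None of the 12 receptors and co-receptors was called, 11 of the 12 had log2 fold changes within 0.5 of 0, and their median was −0.02. FZD6, a Frizzled receptor, led the 12 by level per kilobase of exon (26.4 CPM per kilobase), while RYK, a receptor with a kinase-like domain, led when the longest coding transcript was used as the length (31.5 against 28.3 CPM per kilobase). FZD6 had 83.2, 116 and 90.2 CPM in CAD-KO and 86.7, 88.1 and 179 CPM in sgVec, and in both groups the library that stood apart was the highest. The log2 fold change of FZD6 was −0.29 ± 0.32 (SE) over 6 libraries and 0.14 without sgVec replicate 3. Without both libraries that stood apart it was −0.007, so that its direction depended on which of them were kept. FZD3, ROR1 and LRP6 were also highest in these libraries within their groups, with 35.3, 34.8 and 77.5 CPM for FZD3 and 8.31, 8.14 and 18.2 CPM for ROR1 in sgVec. FZD5 had 33.9, 35.1 and 35.6 CPM in CAD-KO and 34.7, 37.3 and 32.7 CPM in sgVec, and the groups overlapped, as they did for FZD4 and RYK. LRP5 had 145, 79.1 and 126 CPM in CAD-KO and 150.5, 149 and 61.5 CPM in sgVec, with the low value of each group in the library that stood apart. FZD1, FZD2, FZD7 and ROR2 were likewise lowest in those libraries within their groups.

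ZNRF3 and RNF43 are ubiquitin ligases that remove Frizzled receptors from the surface and are themselves Wnt targets, and LGR4 binds R-spondins, which hold the ligases back. ZNRF3 (chromosome 22, 28883592 to 29057487) had 41.3, 32.6 and 43.1 CPM in CAD-KO and 44.5, 51.2 and 48.1 CPM in sgVec. All CAD-KO values lay below all sgVec values, and the fitted level was 1.23-fold lower, with a log2 fold change of −0.30 ± 0.18 (SE) and an adjusted p of 1 in edgeR. RNF43 had 39.8, 30.04 and 40.97 CPM in CAD-KO and 29.2, 34.2 and 28.9 CPM in sgVec, and overlapped through CAD-KO replicate 2. LGR4 had 26.2, 27.6 and 26.01 CPM in CAD-KO and 25.9, 29.5 and 46.9 CPM in sgVec, with sgVec replicate 3 above all others. Over the 42 members, the groups did not overlap for 1 member with CAD-KO higher (CCND1) and 2 with CAD-KO lower (WLS and ZNRF3). Over all genes tested, 5.23% and 5.02% did not overlap in these directions, and neither count of members was above these shares.

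All 8 cytoplasmic genes had log2 fold changes within 0.5 of 0, from −0.25 to 0.17 with a median of −0.03, and none was called. CTNNB1 had 477, 515 and 487 CPM in CAD-KO and 493, 475 and 677 CPM in sgVec. The 5 libraries other than sgVec replicate 3 lay between 475 and 515 CPM, and the log2 fold change of CTNNB1 was −0.15 ± 0.17 (SE) with all libraries and 0.03 without sgVec replicate 3. ULK4 overlaps CTNNB1 on the opposite strand and is counted as well. APC and GSK3B followed the pattern of CTNNB1, with 61.9, 60.8 and 105 CPM for APC and 113, 127 and 224 CPM for GSK3B in sgVec. CSNK1A1, a kinase of the degradation complex, had 204, 203 and 189.6 CPM in CAD-KO and 192, 199 and 184 CPM in sgVec. The adaptors DVL1, DVL2 and DVL3, which carry the signal from Frizzled, and the scaffold AXIN1 ran the other way between libraries. DVL1 had 177, 76.8 and 151 CPM in CAD-KO and 174, 176 and 68.6 CPM in sgVec, so that the difference between replicates of 1 group exceeded the difference between the groups.

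None of the 5 nuclear factors tested was called, and all had log2 fold changes within 0.5 of 0. TCF7L2, the TCF factor with the highest level per length here (23.96 CPM per kilobase), had 146, 165 and 146 CPM in CAD-KO and 156, 166 and 189 CPM in sgVec. Its log2 fold change was −0.16 ± 0.15 (SE), at an adjusted p of 1 in edgeR. TCF7L1, a TCF factor known as a repressor, had 22.4, 18.02 and 24.6 CPM in CAD-KO and 26.8, 25.3 and 2.89 CPM in sgVec. TCF7 and the β-catenin co-activators BCL9 and PYGO2 lay between 17.8 and 50.3 CPM.

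CCND1, the cell-cycle regulator cyclin D1, was the only one of the 8 target genes among the members whose groups did not overlap. CCND1 (chromosome 11, 69641087 to 69654474, forward strand) had 1066, 1015 and 1102 CPM in CAD-KO and 780.0, 764 and 907 CPM in sgVec. Means were 1061 ± 43.7 and 817 ± 78.2 CPM (SD, n = 3 each), a log2 fold change of 0.38 ± 0.13 (SE), with an unadjusted p of 0.0199 and an adjusted p of 1 in edgeR and 0.993 in DESeq2. Without both libraries that stood apart, the log2 fold change of CCND1 was 0.50, at an adjusted p of 5.20e-11 in edgeR, still under 1.5-fold. LTO1, on the opposite strand, overlaps CCND1 and is counted too. Since the strand setting of the counting is not known here, reads of the overlapping parts of such pairs cannot be told apart. DKK1, a secreted Wnt inhibitor and target, had 406, 572 and 432 CPM in CAD-KO and 493, 468 and 882 CPM in sgVec, highest in the libraries that stood apart. Its log2 fold change was −0.39 ± 0.28 (SE), at an adjusted p of 1 in edgeR. AXIN2, the negative-feedback target often used as a readout of the pathway, had 35.97, 28.6 and 36.3 CPM in CAD-KO and 34.1, 32.01 and 21.01 CPM in sgVec. MYC had 315, 274 and 303 CPM in CAD-KO and 310.3, 316 and 279.8 CPM in sgVec. For both genes the groups overlapped. NKD1 and NOTUM, feedback inhibitors, and SP5 lay at 2.85 to 39.1 CPM, each with overlapping groups.

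Over the 42 members tested, 17 log2 fold changes were above 0 and 25 below, with a median of −0.03, and 38 were within 0.5 of 0. Over all 12925 genes tested, 48.1% were above 0, the median was −0.01 and 88.2% were within 0.5 of 0. By role the median was −0.40 for the 2 secretion genes, 0.11 for 5 ligands, −0.30 for 3 genes of the R-spondin axis, 0.10 for 5 nuclear factors and −0.15 for 7 target genes. Without both libraries that stood apart, the medians of the ligands and the nuclear factors were −0.05 and −0.13. In that fit 12 members were above 0 and 30 below, with a median of −0.07, beside a median of −0.002 over all genes. How many of all genes lay above 0 was not counted in that fit. Of the 42, 5 passed an adjusted p under 0.05 when no fold was required, CCND1 and RNF43 higher (7.99% of all genes higher) and WLS, DKK1 and FZD2 lower (8.25% lower). Their log2 fold changes there were 0.36 for RNF43, −0.19 for DKK1 and −0.35 for FZD2. With sample weights the same threshold passed CCND1 and RNF43 higher and WLS, FZD2 and PYGO2 lower, beside 10.5% and 11.8% of all genes. Counted genes overlap RNF43 (SUPT4H1 and AC004687.2) and PYGO2 (SHC1) on the same strand, and the part of these overlaps was not tested. The share of members that passed was not above that of all genes in either fit and direction.

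**Figure D3:**
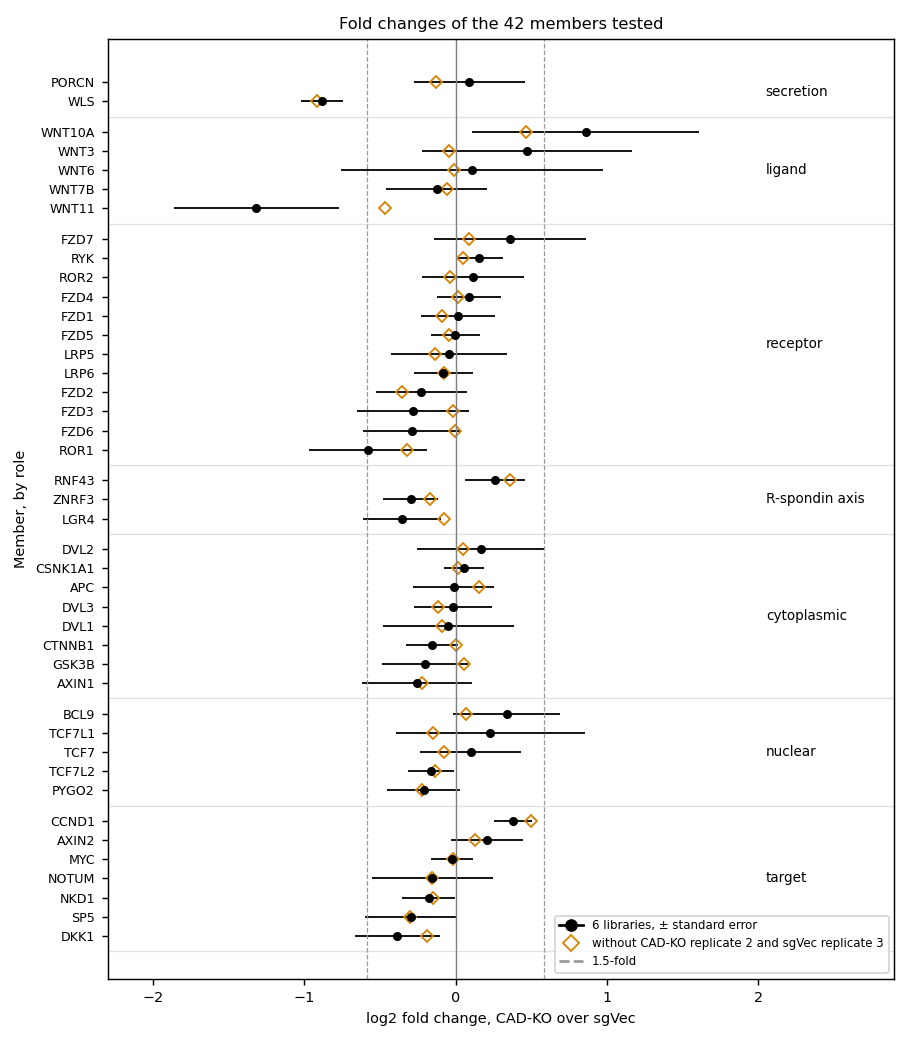
Log2 fold changes of CAD-KO over sgVec for the 42 members tested, by role. Black points are edgeR estimates from 6 libraries with their standard errors, orange diamonds those without CAD-KO replicate 2 and sgVec replicate 3, and dashed lines mark 1.5-fold. WLS lies beyond 1.5-fold in both, WNT11 and WNT10A only in the first, and CCND1 stays inside.

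The members' deviations in the libraries that stood apart followed the GC content of the transcripts. In sgVec replicate 3, 12 of the 42 members were over 2-fold below the mean of the other sgVec libraries and 4 were over 2-fold above it, on CPM + 0.5. The lowest was WNT3, and TCF7L1, WNT6, FZD7, WNT10A, DVL2, BCL9, DVL1, PORCN, LRP5, TCF7 and ROR2 followed. The 4 above were WNT11, FZD3, ROR1 and FZD6. Across the 42 members, Pearson's r between this deviation (log2) and the GC content was −0.65 in sgVec replicate 3 and −0.88 in CAD-KO replicate 2, and across 12885 genes −0.71 and −0.81. In 36 of the 42 members the deviation had the same sign in CAD-KO replicate 2 and sgVec replicate 3, below in 25 and above in 11, beside 81.6% of all genes. Genes share the libraries and their depth, so these values are descriptions. WLS, at 47.7% GC, and CCND1, at 50.3% GC, lay near the middle of the range. WLS deviated by −0.01 in CAD-KO replicate 2 and −0.14 in sgVec replicate 3, and CCND1 by −0.09 and 0.23 (log2). The log2 fold change of CCND1 was 0.38 with all libraries and 0.46 without sgVec replicate 3. The part of GC content in the group differences was not tested.

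**Figure D4:**
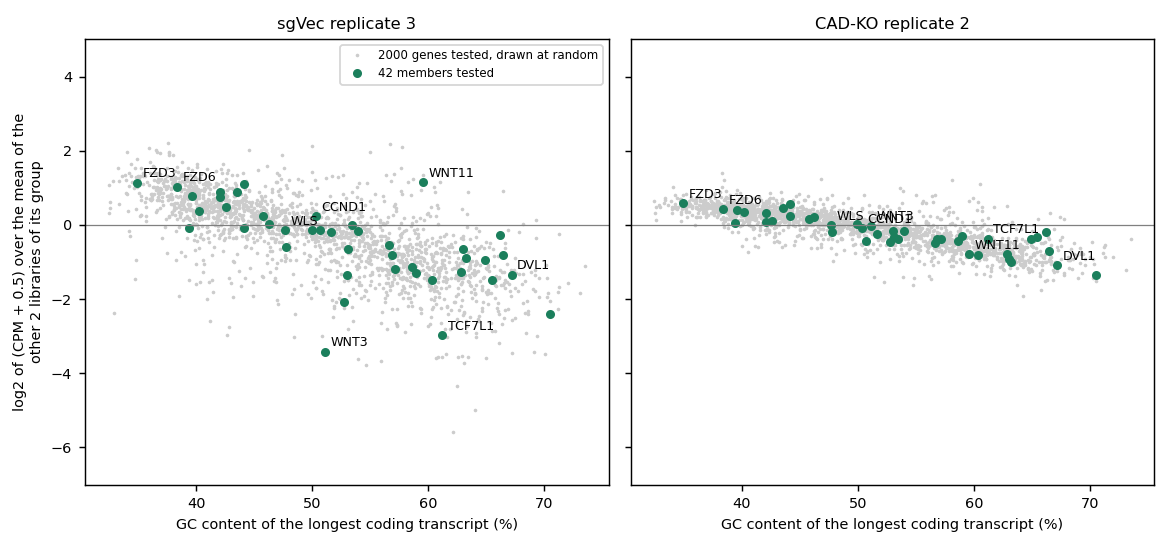
Deviation of sgVec replicate 3 (left) and CAD-KO replicate 2 (right) from the mean of the other 2 libraries of the group, as log2 of CPM + 0.5, against the GC content of the longest coding transcript in percent. Green points are the 42 members tested and grey points 2000 genes drawn at random from those tested. Most members with high GC lie below 0 and most with low GC above it, WNT11 in sgVec replicate 3 apart from the trend, and WLS lies near 0 in both.

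The wider pathway held 113 other genes, of which 83 were tested, 41 with log2 fold changes above 0 and 42 below, with a median of −0.01. edgeR called none of them, and 2 of the 83 higher and 2 lower had an unadjusted p under 0.05, near the shares of all genes given above for that threshold. DESeq2 called 1, SOX4, as lower. SOX4, a transcription factor and Wnt target, had 270.0, 239 and 255 CPM in CAD-KO and 394, 420.4 and 406 CPM in sgVec, without overlap. Its log2 fold change was −0.68 ± 0.13 (SE), at an adjusted p of 0.55 in edgeR and 0.000109 in DESeq2. EPHB3, an ephrin receptor and Wnt target of the intestinal crypt, had 14.1, 8.64 and 11.8 CPM in CAD-KO and 20.4, 24.8 and 18.1 CPM in sgVec, with a log2 fold change of −0.87 ± 0.25 (SE) and an adjusted p of 1 in edgeR. PRICKLE1, of the planar polarity branch, had 2.33, 3.004 and 1.76 CPM in CAD-KO and 0.917, 0.616 and 0.352 CPM in sgVec, with a log2 fold change of 1.88 ± 0.48 (SE) and an adjusted p of 1 in edgeR. DACT1, which binds Dishevelled, had 8.07, 9.33 and 7.74 CPM in CAD-KO and 3.91, 3.76 and 0 CPM in sgVec. Its log2 fold change was 1.68 ± 0.65 (SE) with sgVec replicate 3 at 0, and 1.13 without that library (adjusted p of 0.199 in edgeR). For SOX4, EPHB3, PRICKLE1 and DACT1, named for their p-values in these same libraries, the groups did not overlap. Of the 83 genes, 6 were higher and 4 lower without overlap, beside 5.23% and 5.02% of all genes. All 4 genes were called with sample weights, where the adjusted p was 7.99e-06 for SOX4, 0.00059 for EPHB3, 0.0116 for PRICKLE1 and 0.00632 for DACT1 in limma. That fit called 3 of the 83 higher, 1 of them a nuclear factor not named here, and 2 lower. Of all genes it called 1.64% higher and 3.51% lower. Without both libraries that stood apart these 4 genes were called by edgeR as well, at 1.62e-12, 1.67e-05, 0.0203 and 0.000328. WNT4, a ligand too low to be tested with all libraries, was called lower in that fit (log2 fold change of −1.99, adjusted p of 0.023 in edgeR). In the same fit 1.06% of all genes were called higher and 2.3% lower. The other pathway genes called there were not counted, so the genes named give no share to set beside these. In DESeq2 without sgVec replicate 3, SOX4, EPHB3 and DACT1 were called and PRICKLE1 was not (adjusted p of 0.153).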

How the data were processed

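Per the study's methods and legends, the 6 libraries are irradiated HCT116 cells, 3 of CAD-KO and 3 of sgVec, 24 h after 8 Gy. The authors ran fastp on the reads, counted them per gene with featureCounts and deposited the raw counts in 1 table, whose columns were matched here to the samples by title. The aligner, the annotation and the strand setting are not given in the sources used here. The submitters' processing notes name the build mm10, while the gene identifiers are human, so positions, lengths and GC content were taken by identifier from GENCODE release 29 on GRCh38 (19823 of 20020 genes matched). Genomic DNA is given as the molecule in the labels, but the protocol there is for RNA.

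Genes were filtered with filterByExpr (minimum count 10, minimum total 15), scaled by TMM and tested with edgeR's quasi-likelihood test (edgeR 4.0.16, R 4.3.3, legacy set to FALSE), with Benjamini-Hochberg adjustment over all 12925 genes tested. DESeq2 1.42.0 (the study's tool, with the same thresholds) and limma 3.58.1 were alternatives. Others changed normalization, filter, quasi-likelihood method, threshold or length, added a replicate block or left out libraries. The fit without both CAD-KO replicate 2 and sgVec replicate 3 was chosen after seeing the data. Scripts were tested on simulated data. The members and lists were chosen with earlier results of these data known.

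Members named by rule are WLS, those called in any alternative or without overlap of the groups, and the leader of each role by level per length. Further members, WNT16, WNT4 and the markers singled out are examples chosen after their values were seen. Other pathway genes are named if called in edgeR or DESeq2 or at an unadjusted p under 0.05. The most similar libraries, sgVec replicates 1 and 2, differed by more than sampling noise (chi-square of 2.58 per degree of freedom), so all 6 were kept as separate libraries. That value does not bear on whether sgVec replicate 3 and CAD-KO replicate 2 are fit for use, and fits without them are given. Reads have no molecular identifiers.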

Additional observations from a re-analysis of the deposited data

How the results depend on the processing

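WLS kept its direction in all 18 alternative fits. It also passed the thresholds in 5 of them, with a log2 fold change of −0.88 in DESeq2, −0.92 in limma-voom with sample weights, −0.91 in DESeq2 without sgVec replicate 3 and −0.92 without both CAD-KO replicate 2 and sgVec replicate 3. Leaving out 1 library at a time gave −0.93 to −0.82, and of these edgeR fits the one without sgVec replicate 3 passed. In each of these 5 fits 1 member was called lower, 2 at an unadjusted p, and 0 to 1 with 1 library left out. No member was called higher in any fit. Genes called higher numbered 22 in DESeq2, 0 in limma-voom, 212 with sample weights, 61 in DESeq2 without sgVec replicate 3, 139 without both libraries, 99 at an unadjusted p and 0 to 11 with 1 library left out, against 1 in edgeR. Genes called lower numbered 25, 0, 454, 75, 301, 183 and 0 to 11 in the same order, against 3 in edgeR. The 11 in each direction came without sgVec replicate 3. Where limma-voom called none, 138 genes were higher and 164 lower at an unadjusted p under 0.05, and in the edgeR fits that left out 1 of the other 5 libraries these were 67 to 93 and 93 to 198.

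The labels do not say whether libraries of the same replicate number were prepared together. The correlations below cannot decide this, since the libraries that stood apart carry different replicate numbers. Deviations of same-numbered libraries correlated at 0.570, −0.641 and −0.461, and with the replicate block 0 genes were called higher and 0 lower (64 and 82 at an unadjusted p under 0.05 in edgeR), with WLS at −0.88.

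The median log2 fold change of the ligands was 1.17 in limma-voom, against 0.11. That of the R-spondin axis was −0.083 with sample weights, −0.042 in DESeq2 without sgVec replicate 3, −0.078 without both libraries and −0.35 to −0.056 with 1 library left out, against −0.30. That of the targets was −0.060 in DESeq2 without sgVec replicate 3 and −0.21 to 0.033 with 1 library left out, against −0.15. CTNNB1 turned to 0.00055 with sample weights and 0.042 in DESeq2 without sgVec replicate 3 (−0.24 to 0.028 with 1 library left out). FZD6 turned to 0.022 and 0.16 in the same fits (−0.47 to 0.14), and WNT7B reached −0.31 to 0.13 with 1 library left out. The cause of these changes was not tested. No scaling moved the median of all genes by over 0.1 on the log2 scale.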
